A study of Homo sapiens with 6 samples.

Results

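The HOX gene clusters were read from RNA-seq of COV434 cells with and without reexpressed BRG1. Members were the genes whose symbol is HOX, a cluster letter from A to D and a number, which gave 39 genes of the 19899 in the table. HOXA held 11 of them, HOXB 10, HOXC 9 and HOXD 9. COV434 is an established line from an ovarian tumour. The study places it with its lines of SCCOHT, a small cell ovarian carcinoma with hypercalcemia that lacks BRG1, the SWI/SNF ATPase encoded by SMARCA4. Control cells (n = 3) received the plasmid pCDNA3-neo and BRG1 cells (n = 3) received PBJ5-BRG1. Both groups also received pBABE-puro, went onto puromycin at 2 to 3 µg/ml after 24 hours and were collected after 3 days of selection. BRG1 therefore came from a transient plasmid, in a single cell line, and its samples were labelled as biological replicates.

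HOX genes encode homeodomain transcription factors that set position along the body axis. In vertebrates they lie in clusters on separate chromosomes, and members with the same number in different clusters, the paralogs, descend from a common ancestor. Low numbers are used toward the head and high numbers toward the tail, in the order in which the genes lie along the DNA. In the female tract, HOXA9, HOXA10, HOXA11 and HOXA13 pattern the oviduct, uterus, cervix and upper vagina. The fly relative of BRG1, Brahma, was found as a trithorax-group activator of HOX genes, which act against silencing by Polycomb proteins.

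The libraries held 29699741 to 63613710 estimated counts, and BRG1 3 was the shallowest. SMARCA4 stood at 1625 ± 124 normalised counts (SD, n = 3) in Control cells and at 92172 ± 16520 after BRG1 transfection (log2 fold change 5.83, SE 0.17), in the direction of the labels, and the BRG1 value includes plasmid transcripts. Of the granulosa markers, FOXL2, FSHR and AMHR2 stood at or under 3 counts in every sample. Summed endothelial, epithelial and granulosa markers differed between the groups without overlap, and fibroblast and immune markers overlapped. The endothelial list went from 1826 to 2773 normalised counts in Control to 6576 to 7216 in BRG1 samples, with 3 of 5 genes called higher, and the epithelial list from 128 to 165 to 648 to 1969, with 2 of 6 called higher while EPCAM and KRT19 stayed at or under 3 counts. Granulosa markers summed to 420 to 555 and 1000 to 2113 (2 of 8 higher), fibroblast markers to 5527 to 9084 and 4376 to 9860 (1 of 6 higher), and immune markers to 1928 to 3021 and 2531 to 4025 (1 of 6 higher, CD3E at or under 3 counts). The part these shifts play in the HOX values was not tested, and in bulk RNA a change in the share of cells that use a gene cannot be told apart from a change per cell.

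COV434 cells used the HOXC cluster far more than the others, with and without BRG1. In every sample HOXC members made up 86.8% to 92.1% of all HOX normalised counts, where a normalised count is the estimated count brought to a common library size. With BRG1, HOXB3 and HOXB9 were called higher, and HOXB4 only in DESeq2 and in the tests that pair samples by replicate number. HOXB3 passed the count filter through the BRG1 samples alone. The calls of HOXB3 and HOXB9, and the paired edgeR call of HOXB4, were lost when some single samples were left out. No test of a difference between clusters was run. None of the HOXA, HOXC or HOXD members passed the test in either direction. HOXA9, HOXA10, HOXB1 and HOXD4 had no count in any sample.

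**Figure D1:**
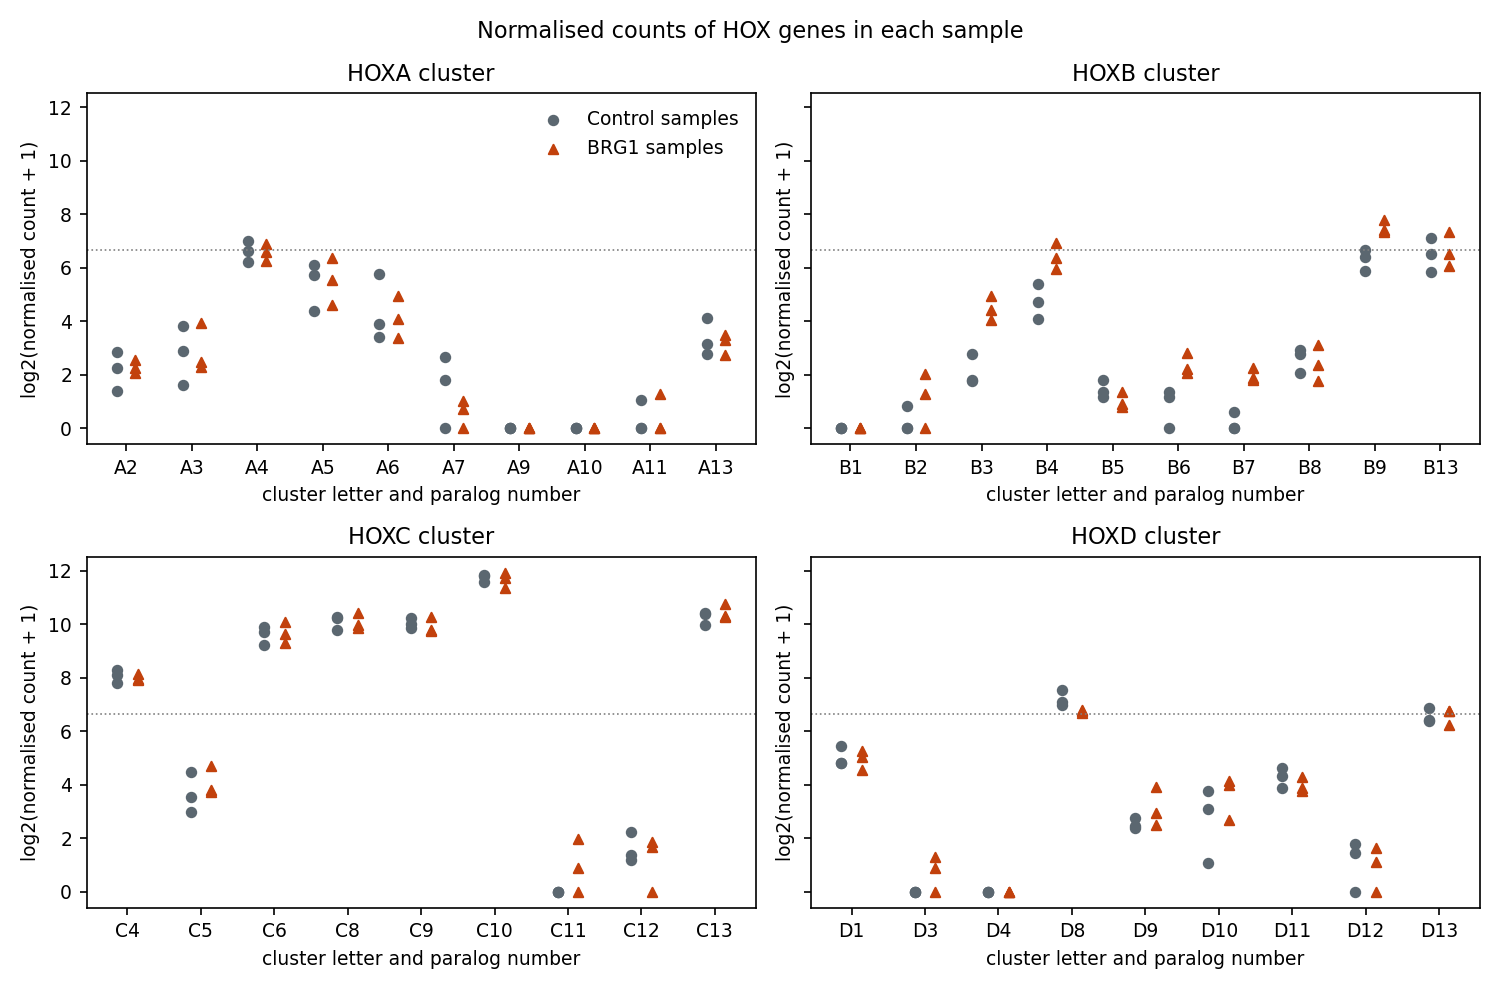
Each of the 4 panels shows a cluster, with members by paralog number on the horizontal axis and log2(normalised count + 1) on the vertical axis, grey circles for the 3 Control samples, orange triangles for the 3 BRG1 samples and a dotted line at 100 normalised counts. In both groups 6 HOXC members stand above the line, and HOXB3, HOXB4 and HOXB9 show BRG1 points clear of the Control points.

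Only 20 of the 39 members had at least 10 counts in at least 3 samples and were tested: 5 in HOXA, 4 in HOXB, 7 in HOXC and 4 in HOXD. The other 19 never exceeded 19 counts in any sample, and 10 of them held 3 counts or fewer in all 6 samples. Of the tested members 2 were called higher by the quasi-likelihood test of edgeR at a Benjamini-Hochberg adjusted p under 0.05, beside 9.23% of the 14225 genes tested. No member was called lower, beside 0.984% of all genes, and 0 members were lower even at an unadjusted p under 0.05. DESeq2 gave an adjusted p to 26 members and called 3 higher, against 11.0% of all genes, and again 0 lower, against 1.84%. With the replicate number as a block, edgeR called 3 higher, against 13.3%, and 0 lower, against 5.5%, and DESeq2 called 2 higher, against 13.4%, and 0 lower, against 6.62%. The limma-voom counts were 2 higher, against 8.93%, and 0 lower, against 1.1%. As shares of the members tested these stand close to the background, so the count of calls is not a result about the HOX family. The log2 fold changes of the 20 split evenly, with 10 above 0 and 10 below, and their median was 0.006, against -0.04 over all genes tested.

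**Figure D2:**
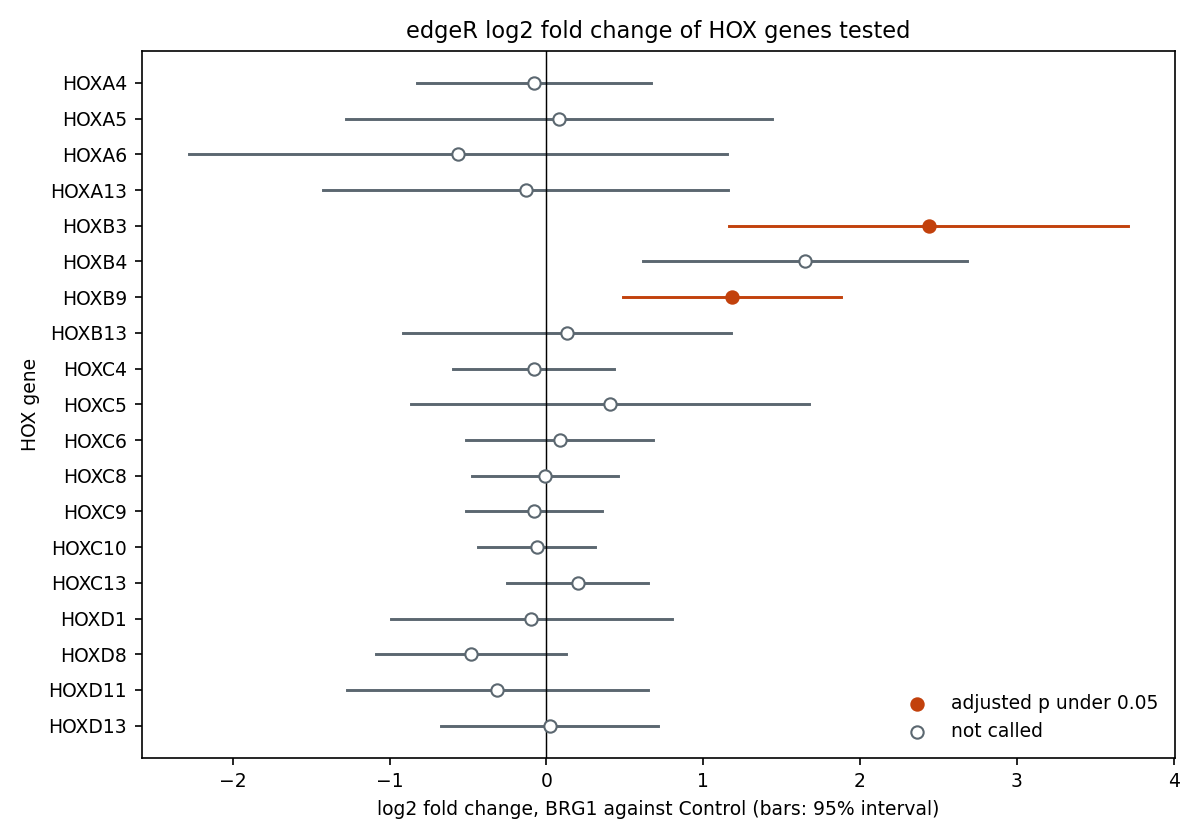
Log2 fold change, BRG1 against Control, of HOX members tested, with 95% intervals from edgeR and members called at an adjusted p under 0.05 in orange. HOXB3 and HOXB9 lie above 0 with their intervals, as does HOXB4, which was not called, and the other intervals span 0.

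The HOXB cluster (chromosome 17, 48528526 to 48728750, minus strand, GRCh38) summed to 209, 185 and 253 normalised counts in Control samples 1 to 3 and to 421, 375 and 441 in BRG1 samples 1 to 3. The groups did not overlap, with means of 216 ± 34.4 and 412 ± 34.0, a ratio of 1.91. HOXA summed to 310 ± 67.9 in Control and 321 ± 74.7 in BRG1 samples, HOXC to 7875 ± 661 and 7882 ± 1451, and HOXD to 306 ± 38.3 and 270 ± 36.1. Those 3 pairs of sums differed by less than the SD of the Control samples. Since the sums add members chosen as a family, they carry no test.

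HOXB9 (48621156 to 48626358), a posterior HOXB gene expressed in the thoracic and lower regions of the embryo, had 84.4, 99.98 and 58.3 normalised counts in Control samples and 170, 217 and 160 in BRG1 samples. Every BRG1 sample lay above every Control sample. The mean went from 80.9 ± 21.1 to 183 ± 30.3, a log2 fold change of 1.18 (SE 0.30, 95% interval 0.49 to 1.88), with an edgeR adjusted p of 0.0464. In samples of equal number the ratios were 2.02, 2.17 and 2.75. The call was close to its threshold. It was lost when Control 1 (1.22, adjusted p 0.132), Control 2 (1.36, 0.0718), Control 3 (0.99, 0.140), BRG1 1 (1.24, 0.0951) or BRG1 2 (1.06, 0.186) was left out, while the adjusted p was 0.0106 with the replicate block and 0.00134 in DESeq2.

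HOXB3 (48548870 to 48604912), an anterior gene of the hindbrain, had far fewer reads. It held 2.54, 2.45 and 5.93 normalised counts in Control samples and 30.2, 15.6 and 20.4 in BRG1 samples, from 2, 2 and 8 estimated counts against 41, 18 and 13. The groups were well apart, at 3.64 ± 1.98 and 22.0 ± 7.43. Its log2 fold change was 2.44 (SE 0.55, 95% interval 1.17 to 3.71), with an edgeR adjusted p of 0.0269. HOXB3 passed the count filter through the BRG1 samples alone, so a difference in that direction is partly set by the filter. The call was lost without Control 1 (2.24, adjusted p 0.0971), Control 2 (2.22, 0.104), BRG1 1 (2.11, 0.106) or BRG1 2 (2.68, 0.0514), and in DESeq2 with the replicate block (adjusted p 0.0622). Its exons share 6.42% of their length with HOXB4 and HOXB6 on the same strand and 5.29% with antisense transcripts, so reads from neighbours could be split between them.

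HOXB4 (48575507 to 48578350), known for its use in blood stem cells, had 25.6, 16.0 and 41.0 normalised counts in Control samples and 119, 61.4 and 81.8 in BRG1 samples. Again no BRG1 sample fell within the Control range. The mean was 27.5 ± 12.6 against 87.5 ± 29.3, and the log2 fold change was 1.65 (SE 0.45, 95% interval 0.61 to 2.68). The edgeR adjusted p was 0.0608, which misses the threshold. With the replicate block the log2 fold change was 1.69 (adjusted p 0.0179) and in DESeq2 1.66 (adjusted p 0.00837), so the call depends on the test. The blocked call was lost without Control 1 (1.41, adjusted p 0.0736), Control 2 (1.59, 0.125), BRG1 1 (1.4, 0.0543) or BRG1 2 (1.61, 0.129), and without the block HOXB4 was not called whichever sample was left out. Ratios between samples of equal number were 4.66, 3.83 and 2.00.

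**Figure D3:**
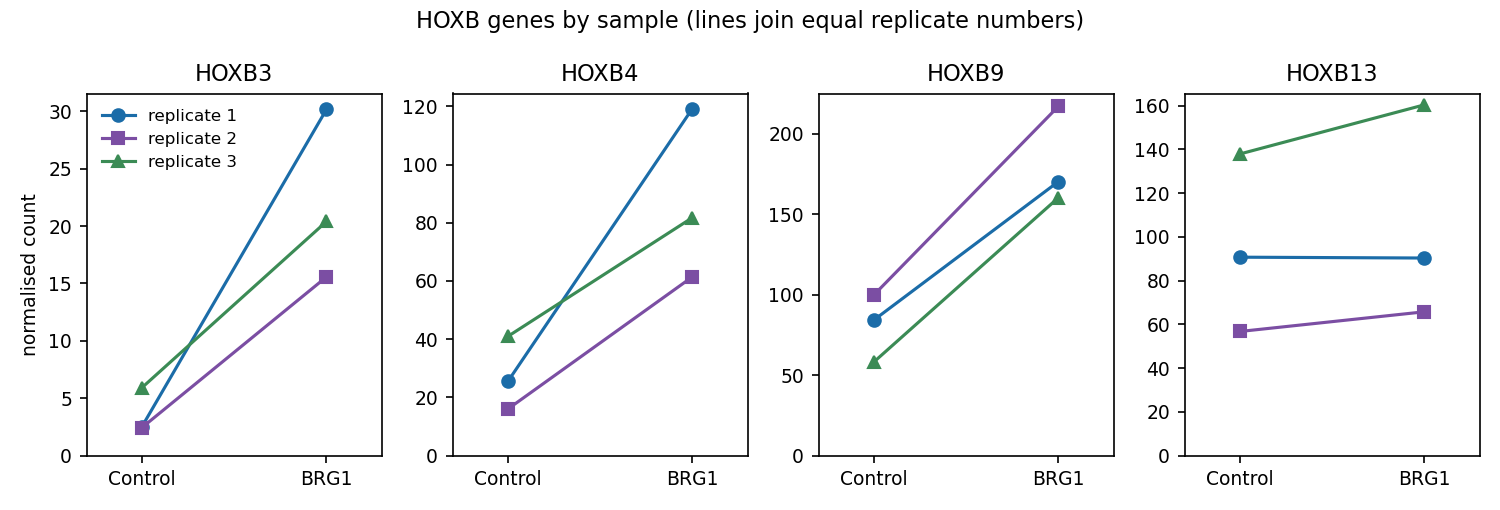
Normalised counts of HOXB3, HOXB4, HOXB9 and HOXB13 in each sample, with lines joining Control and BRG1 samples of the same replicate number. The lines climb in all 3 pairs for HOXB3, HOXB4 and HOXB9 and run close to level for HOXB13.

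HOXB13 (48724763 to 48728750), the most posterior HOXB gene, active in the hindgut and prostate, lies apart from the rest of its cluster, 102.392 kb beyond the start of HOXB9. Its normalised counts were 90.7, 56.8 and 138 in Control and 90.4, 65.8 and 160 in BRG1 samples. The groups overlapped fully. The log2 fold change was 0.13 (95% interval -0.91 to 1.18, adjusted p 0.917), and the upper bound is about as high as the change seen in HOXB9. The starts of HOXB3 and HOXB9 lie 36.117 kb apart, with the untested HOXB5 to HOXB8 between them. Measured from the start of HOXB1, HOXB4 lies at 47.3 kb, HOXB3 at 59.2 kb and HOXB9 at 95.3 kb.

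The HOXB genes between and before them were scarcely detected. HOXB6 had 1, 0 and 2 estimated counts in Control samples and 5, 7 and 2 in BRG1 samples, and HOXB7 had 0 in all 3 Control samples and 3, 4 and 2 in BRG1 samples. After scaling, the BRG1 values of both lay above the Control values, at or within a few counts of the limit of 3. For HOXB6 this rests on the scaling, since Control 3 and BRG1 3 each held 2 counts. HOXB5 held at most 2 counts in any sample, HOXB2 at most 2, and HOXB8 2, 5 and 8 in Control against 3, 5 and 5 in BRG1 samples. HOXB1, the rhombomere gene at the head end, had none. A total of 5 members, all in HOXB (HOXB3, HOXB4, HOXB6, HOXB7 and HOXB9), thus had every BRG1 sample above every Control sample. Among the tested genes this was true of 3 of the 20 members, close to the 15.6% of all genes, so it is not a result about the HOX family. HOXB6 and HOXB7 were under the count filter and are not in that comparison.

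**Figure D4:**
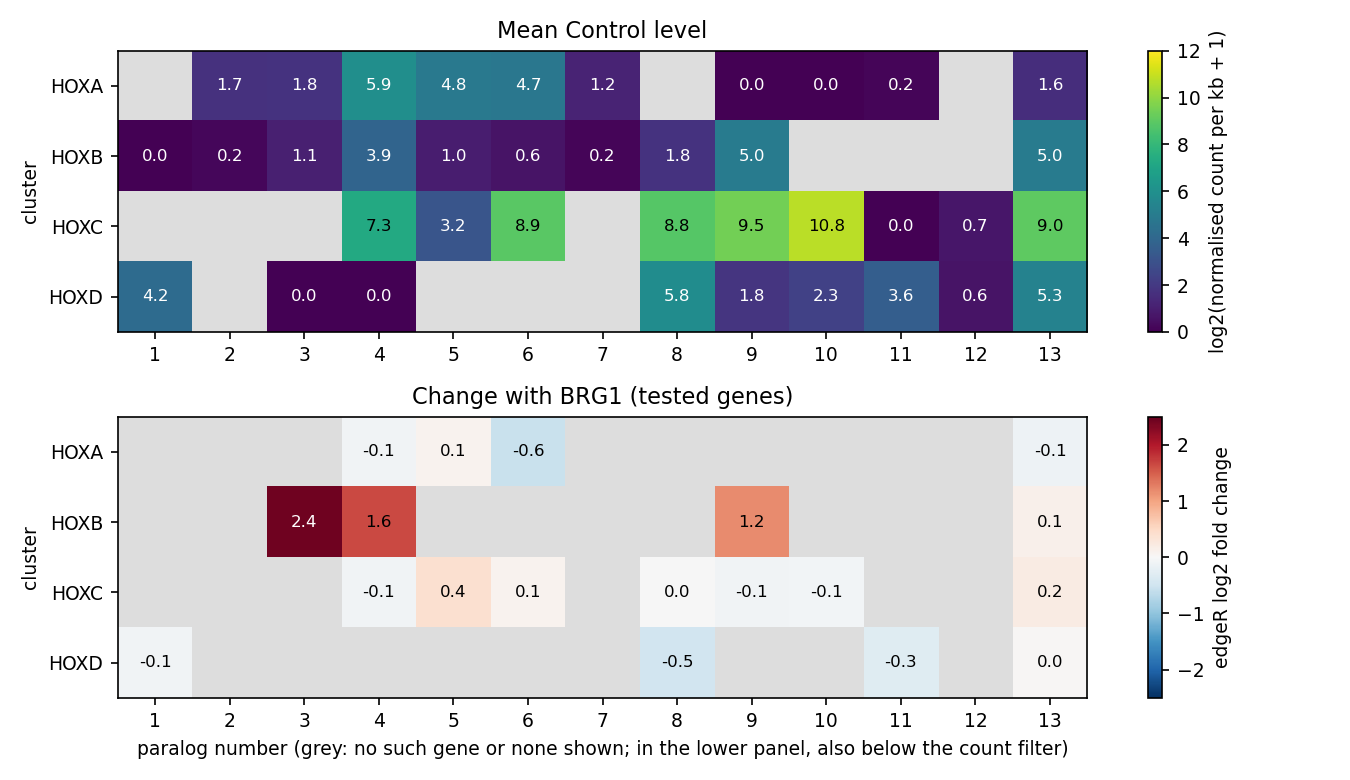
Grids of the 4 clusters (rows) against paralog numbers 1 to 13 (columns), coloured in the upper panel by the mean Control level, as log2(normalised count per kb + 1), and in the lower panel by the edgeR log2 fold change, BRG1 against Control. Grey cells have no such gene or none shown, or in the lower panel lie under the count filter. The HOXC row is the brightest above, and HOXB3, HOXB4 and HOXB9 are the strongest colours in the lower grid.

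No paralog of HOXB3, HOXB4 or HOXB9 in another cluster was called. In paralog group 4, HOXA4 had a log2 fold change of -0.08 (95% interval -0.83 to 0.67) and HOXC4 of -0.08 (-0.60 to 0.43), while HOXD4 had no counts. Other annotated transcripts overlap 47.8% of the HOXA4 exons, 31.3% on the same strand, so its reads could be shared with them. In group 9, HOXC9 stood at -0.08 (-0.52 to 0.36), and HOXA9 had no counts. HOXD9 held 4, 5 and 5 estimated counts in Control and 6, 8 and 9 in BRG1 samples. After scaling, its values were 4.53, 5.83 and 4.18 against 4.59, 6.81 and 13.9, and the groups overlapped. In group 3, HOXA3 varied from 2 to 17 counts over Control samples and from 5 to 9 over BRG1 samples, and HOXD3 reached at most 2. The upper bound for HOXC9 lies under the lower bound for HOXB9, and that for HOXC4 under the lower bound for HOXB4, but the interval of HOXA4 overlaps that of HOXB4. No test of the difference between paralogs was run.

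Group 13 was the only one, of those from 1 to 13, with every member tested. HOXA13 averaged 10.1 ± 5.65 normalised counts without and 8.30 ± 2.32 with BRG1, HOXD13 94.1 ± 18.0 and 95.6 ± 19.2, and HOXC13 stood at 1223 ± 199 and 1404 ± 282. None of the 4 was called. Group 12 was the reverse, with HOXC12 and HOXD12 at or under 3 counts throughout.

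The HOXC cluster (chromosome 12, 53938831 to 54056030, plus strand) carried the 6 members with the highest values of the family. HOXC10 (53985065 to 53990279), a gene of the lumbar spinal cord and hindlimb, had the most counts, with 33.9% to 41.7% of all HOX counts in a sample. It had 3038, 3676 and 3579 normalised counts in Control and 2606, 3848 and 3408 in BRG1 samples. These ranges overlapped, and the log2 fold change was -0.06 (95% interval -0.44 to 0.31, adjusted p 0.888).

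The shares and counts given so far are not divided by length, and levels of different genes were also set side by side per kilobase of the MANE transcript. In Control samples HOXC10 led with 1736 ± 174 normalised counts per kb, ahead of HOXC9 with 708 ± 90.6. HOXC13 (519 ± 84.3), HOXC6 (480 ± 113) and HOXC8 (456 ± 77.2) followed and did not differ beyond their SDs, although with lengths from the union of exons HOXC6 stood at 229, below the other two. HOXC4 was the lowest of the 6 with 157 ± 26.5 (97.2 by exon union). HOXD8 reached 56.4 ± 11.9, and HOXB9 and HOXB13 both stood at 31.3 per kb (SD 8.14 and 13.4). In BRG1 samples HOXB9 reached 70.6 per kb, above the 40.4 of HOXD8. HOXB4 went from 13.8 ± 6.29 per kb to 43.7, and HOXB3 from 1.1 ± 0.60 (0.490 by exon union) to 6.68.

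HOXC13 (53938831 to 53946544), needed for hair and nails, had 995, 1353 and 1323 normalised counts in Control and 1256, 1729 and 1227 in BRG1 samples. Its log2 fold change was 0.20 (95% interval -0.25 to 0.65, adjusted p 0.658). HOXC9 (53994895 to 54003337), a thoracic gene, had 1024, 1185 and 920 against 861, 1216 and 881 (log2 fold change -0.08, adjusted p 0.875). For both genes the 2 ranges overlapped.

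HOXC8 (54008985 to 54012769), HOXC6 (53990624 to 54030823) and HOXC4 (54016931 to 54056030) pattern the brachial and cervical levels. HOXC8 had 1193, 1224 and 887 normalised counts in Control and 930, 1347 and 1002 in BRG1 samples, a log2 fold change of -0.01 whose sign turned with the scaling. HOXC6 had 836, 952 and 589 against 791, 1091 and 631 (log2 fold change 0.08, 95% interval -0.51 to 0.68). HOXC4 had 273, 222 and 312 against 239, 243 and 282. In all 3 genes the samples of the groups were interleaved. Over the 6 HOXC members above 100 normalised counts, the 95% intervals ran from -0.60 to 0.68, so ratios outside 0.661 to 1.60 lie beyond every interval. HOXC6 and HOXC4 share 16.1% and 17.5% of their exons with same-strand neighbours, and HOXC5 shares 67.3%, so the split of reads among them is uncertain.

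At the ends of the HOXC range, HOXC5 had 13.0 ± 7.53 and 16.7 ± 7.05 normalised counts, HOXC11 had 0 in Control samples and 4, 1 and 0 estimated counts in BRG1 samples, and HOXC12 never exceeded 3. HOXC11 and HOXC12 thus sat near the floor between HOXC10 and HOXC13, both of which were abundant. An upstream start that RefSeq gives for both HOXC4 and HOXC5 is shown because these genes, at 157 and 8.07 normalised counts per kb in Control samples, have it in common. The 300 bases (GRCh38.p14, chr12:54016638-54016937, plus strand, 250 before and 50 after the start) hold 15 CpG dinucleotides, in capitals.
HOXC4 and HOXC5: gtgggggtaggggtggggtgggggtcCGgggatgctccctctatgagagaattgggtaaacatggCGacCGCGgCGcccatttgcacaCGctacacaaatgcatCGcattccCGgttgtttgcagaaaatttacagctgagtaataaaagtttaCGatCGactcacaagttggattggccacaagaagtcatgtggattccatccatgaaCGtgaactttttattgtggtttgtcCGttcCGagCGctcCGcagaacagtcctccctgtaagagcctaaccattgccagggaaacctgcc

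**Figure D5:**
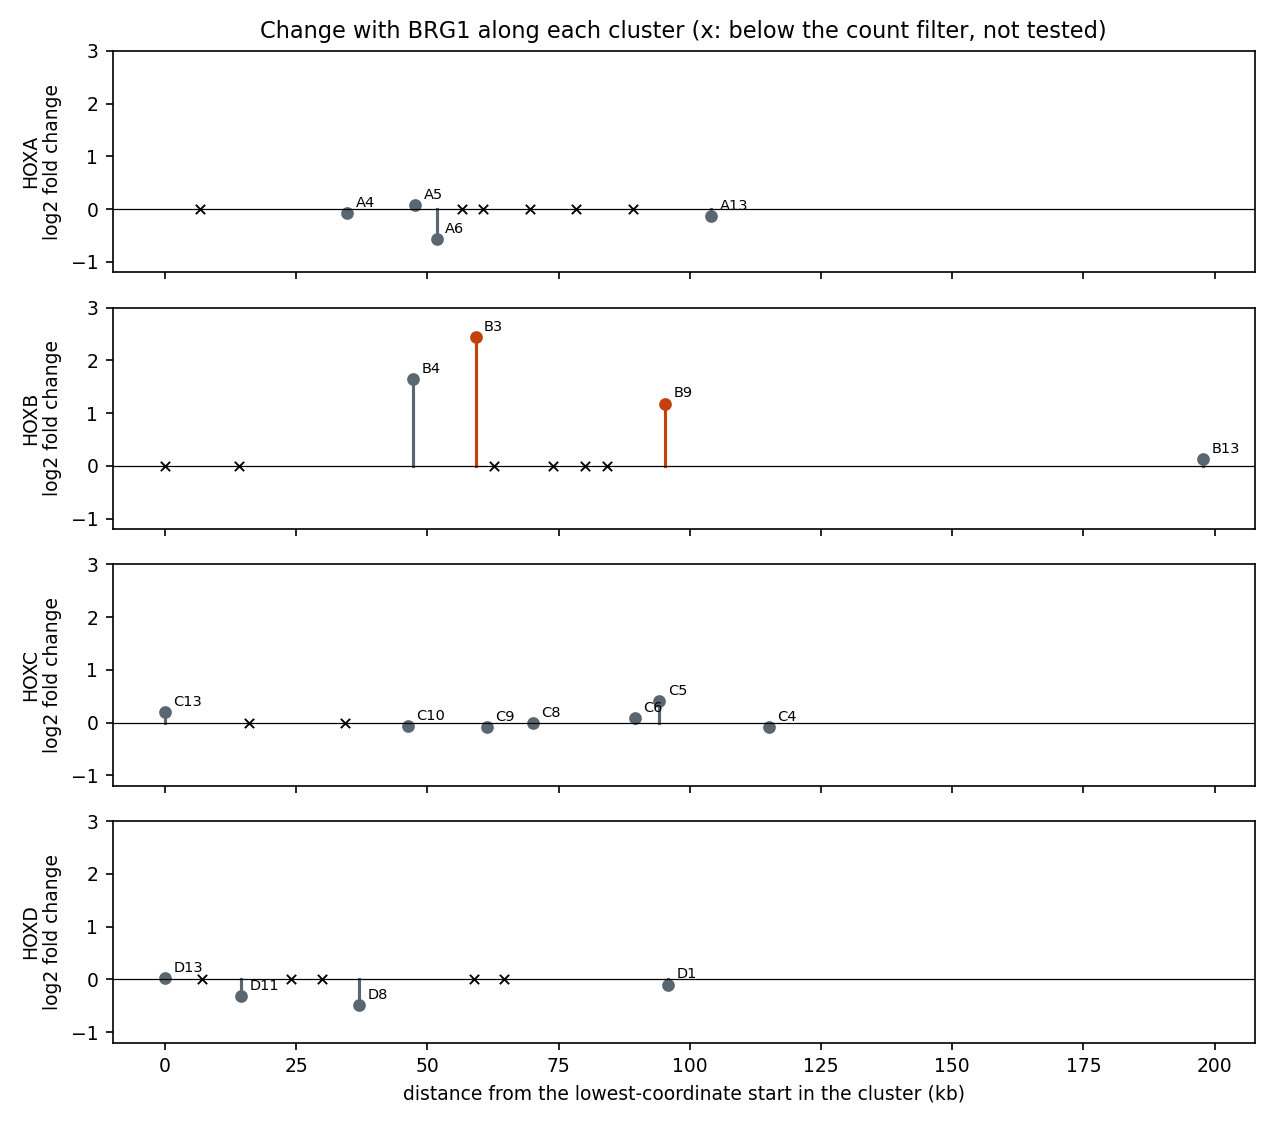
Log2 fold change, BRG1 against Control, of tested HOX members against the distance in kb of its start from the lowest-coordinate start of its cluster, in a panel for each cluster, with called members in orange and crosses at 0 for members under the count filter. HOXB4, HOXB3 and HOXB9 start at 47.3, 59.2 and 95.3 kb, with crosses for HOXB5 to HOXB8 between HOXB3 and HOXB9. HOXB13 stands apart at 198 kb, and the HOXC members over 100 normalised counts lie near 0.

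HOXD8 (chromosome 2, 176129694 to 176132695, plus strand) had the highest counts of the HOXD genes and was the single member with every BRG1 sample below every Control sample. It had 126, 134 and 183 normalised counts in Control and 109, 102 and 107 in BRG1 samples. This happened for 1 of the 20 tested members and for 11.0% of all genes. The mean was 148 ± 31.1 against 106 ± 3.74, and the log2 fold change was -0.48 (SE 0.26, 95% interval -1.09 to 0.13). With an adjusted p of 0.375 it was not called. Antisense transcripts of HOXD-AS2 cover 24.4% of its exons, and without strand their reads cannot be told apart.

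The other HOXD genes were lower still. HOXD1 had 32.2 ± 8.96 and 30.7 ± 7.84 normalised counts, with 60.1% of its exons under antisense transcripts, HOXD11 had 18.8 ± 5.06 and 15.1 ± 3.11, and HOXD13, the digit gene, was given with its paralogs above. None was called. HOXD10 ranged from 1 to 16 counts within Control samples and from 7 to 19 within BRG1 samples, so its replicates spread more than its groups. HOXD4 had no count, although its neighbour HOXD8 was among the 10 members over 100 normalised counts. The start windows of both are shown because they differ in CpG content. The pair was picked for that difference, and a link between CpG content and counts was not tested. HOXD8 (chr2:176129455-176129754) holds 34 CpG dinucleotides and HOXD4 (chr2:176151300-176151599) holds 4, both on the plus strand of GRCh38.p14 with CpG in capitals.
HOXD8: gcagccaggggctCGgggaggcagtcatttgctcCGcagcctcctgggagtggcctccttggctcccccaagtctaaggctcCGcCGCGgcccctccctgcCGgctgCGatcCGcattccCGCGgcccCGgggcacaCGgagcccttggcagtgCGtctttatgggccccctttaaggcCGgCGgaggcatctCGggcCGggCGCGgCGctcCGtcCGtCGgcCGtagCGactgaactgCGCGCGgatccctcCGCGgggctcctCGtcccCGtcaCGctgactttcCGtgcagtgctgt
HOXD4: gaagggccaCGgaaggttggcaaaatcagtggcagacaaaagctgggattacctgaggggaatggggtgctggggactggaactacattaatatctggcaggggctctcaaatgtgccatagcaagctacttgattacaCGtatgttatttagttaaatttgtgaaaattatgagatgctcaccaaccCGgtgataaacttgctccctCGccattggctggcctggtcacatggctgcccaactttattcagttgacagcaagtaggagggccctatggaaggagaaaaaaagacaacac

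RefSeq start windows were at hand for 20 members, in 26 distinct windows, with HOXB3, HOXB4 and HOXB9 not among them. Their median was 22.5 CpG dinucleotides, against 14 over 35116 windows of all genes. Among members without counts, HOXD4 had 4, HOXB1 11 and HOXA9 22, and the 2 windows of HOXA10 had 21 and 25. A link between CpG content and counts was not tested. The AP-1 letters TGANTCA, on either strand, were in 0 of the 26 windows and in 7.71% of all windows, and the interferon-response letters GAAANNGAAA in 0 and 3.57%. TATAAA stood in 5 windows, of HOXA3, HOXA9, HOXA10 and HOXD13, beside 11.5% of all windows. The HOX-PBX letters TGATTNAT stood in 2, of HOXA2 and HOXD11, beside 2.82%. A match of letters is not a bound site.

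In the HOXA cluster (chromosome 7, minus strand) no member was called. HOXA4 had 99.6 ± 26.6 normalised counts in Control cells and 95.1 ± 21.3 with BRG1, HOXA5 46.3 ± 24.4 and 50.3 ± 29.6, and HOXA6 25.5 ± 24.1 and 18.4 ± 10.6, with 39.3% of the HOXA6 exons under antisense transcripts. In HOXA5 and HOXA6 the replicates of a group differed by more than the group means.

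Of the genes that pattern the female tract, HOXA13 was tested and not called, HOXA11 had at most 2 counts in any sample, and HOXA9 and HOXA10 had none, which allows up to 3 counts in each library. The readthrough gene HOXA10-HOXA9, listed on its own, was also at 0. HOXA2 held 2 to 5 counts in every sample and HOXA7 at most 4. Over the 16 tested members outside HOXB, log2 fold changes ran from -0.57 to 0.40 with adjusted p-values of 0.375 to 0.985.

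HOX proteins bind DNA with TALE homeodomain partners, and of 9 such genes tested (PBX, MEIS and PKNOX) 1 was called higher, beside 9.23% of all genes, and 0 lower, beside 0.984% (median log2 fold change -0.06). That gene was PKNOX2, which went from 9.76, 23.4 and 9.72 normalised counts in Control to 71.7, 54.5 and 80.1 in BRG1 samples. The groups did not overlap, and its log2 fold change was 2.27 (SE 0.45, adjusted p 0.0152). The call was lost without Control 1 (2.10, 0.0665) or Control 3 (2.02, 0.0640).

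Polycomb proteins hold HOX genes off and MLL or trithorax-type proteins hold them on. Of 27 Polycomb subunits 0 were called in either direction by edgeR or DESeq2 (median -0.14), beside 9.23% of all genes called higher and 0.984% lower by edgeR. With the replicate block, PCGF5, a ring-finger subunit of PRC1, was higher (log2 fold change 0.46, adjusted p 0.0112) and EZH2, the methyltransferase of PRC2, was lower (-0.39, adjusted p 0.0350). That is 1 of 27 in each direction, beside 13.3% of all genes higher and 5.5% lower with the block. With a sample left out, the blocked EZH2 call was kept only without Control 3 or BRG1 3. Both of those fits also called RBBP4, CBX2 and CBX8 lower, and the fit without Control 3 called PCGF2 lower. The shares of all genes called in those fits are not given here. The blocked PCGF5 call was lost without Control 2 or BRG1 2. Of 14 MLL and trithorax-type activators 0 were called by edgeR, with or without the block, or by DESeq2 (median -0.07), with all samples in. Under the block, PSIP1 was called lower without Control 3 and DOT1L higher without BRG1 3. The shares of all genes to set beside the calls with all samples are those given above for each test. Of the 14 genes that flank the clusters, 10 were tested and 0 were called (median -0.16), beside 9.23% of all genes higher and 0.984% lower. Under the block CALCOCO1 was higher (0.38, adjusted p 0.0138) and CBX5, which encodes HP1 alpha next to HOXC, was lower (-0.66, adjusted p 0.00605). That is 1 of the 10 in each direction, beside 13.3% of all genes higher and 5.5% lower with the block. With a sample left out, the blocked CALCOCO1 call was lost without Control 1, Control 2 or BRG1 2. The blocked CBX5 call was lost without Control 2 or BRG1 2. HIBADH was called higher under the block without Control 3 or BRG1 3.

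Retinoic acid is the classical inducer of HOX genes. Of 19 genes of its pathway 13 were tested, and 3 were called higher, beside 9.23% of all genes, and 0 lower, beside 0.984% (median 0.31). STRA6, the receptor that takes up retinol, had 5.34, 0 and 2.11 normalised counts in Control and 92.0, 80.2 and 32.1 in BRG1 samples (log2 fold change 4.74, adjusted p 0.00607). CYP26A1 and CYP26B1 break retinoic acid down. CYP26A1 went from 33.9, 20.3 and 13.9 to 201, 162 and 69.3 (2.71, adjusted p 0.0119), and CYP26B1 from 32.1, 11.4 and 13.9 to 77.7, 83.3 and 69.9 (2.02, adjusted p 0.0252). In these 3 genes no BRG1 sample reached down to the Control range. STRA6 kept its call whichever sample was left out, but it passed the count filter through the BRG1 samples alone, so its direction is partly set by the filter. CYP26A1 lost it without Control 2 (2.64, 0.0671) or Control 3 (2.45, 0.0537), and CYP26B1 without Control 2 (1.76, 0.0903), Control 3 (1.83, 0.102), BRG1 1 (2.01, 0.0664) or BRG1 2 (1.99, 0.0954). DESeq2 added DHRS3, a retinal reductase (2.99, adjusted p 0.00553), beside 11.0% of all genes called higher by DESeq2. DHRS3 lay under the count filter, so the main edgeR test gave it no value. Its mean normalised count was 4.08 ± 2.37 without BRG1 and 30.6 ± 21.2 with BRG1.

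CDX and ParaHox genes, which act upstream of HOX genes or descend from the same ancestral set, were nearly silent, with 1 of 6 tested and 0 called by edgeR or DESeq2. Over all genes edgeR called 9.23% higher and 0.984% lower. Among 57 homeobox genes of the ANTP class outside the clusters, which include those 6, 28 were tested, 4 were called higher, beside 9.23% of all genes, and 0 lower, beside 0.984% (median 0.16). NKX3-2, a gene of the early skeleton and gut mesoderm, went from 170, 132 and 195 normalised counts in Control to 996, 755 and 487 in BRG1 samples (log2 fold change 2.17, adjusted p 0.00292). MSX1, a mesenchymal gene, went from 266, 171 and 277 to 1724, 798 and 555 (2.11, adjusted p 0.0170). VAX2, a gene of the ventral eye, went from 253, 328 and 311 to 670, 531 and 480 (0.91, adjusted p 0.0301). The groups were apart in these 3. NKX3-2 kept its call whichever sample was left out. MSX1 lost its call without Control 1 (2.19, 0.0645), Control 2 (1.92, 0.0868) or Control 3 (2.23, 0.0542). VAX2 lost its call without Control 1 (0.81, 0.123), Control 2 (0.99, 0.0761), Control 3 (0.95, 0.0882), BRG1 1 (0.76, 0.107) or BRG1 2 (0.98, 0.0943). DESeq2 also called EMX2 (4.12, adjusted p 0.000841) and HLX (1.85, adjusted p 0.0292), and the replicate block HLX (1.86, adjusted p 0.0265).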

How the data were processed

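RNA was sequenced from 3 Control and 3 BRG1 samples of COV434 cells, as unstranded poly(A) libraries from 500 ng of RNA and read pairs of 78 bases. The authors aligned reads with STAR (2.5.3a, GENCODE v24 annotation), quantified them with salmon (0.8.2) and deposited estimated counts per gene symbol, made with tximport from TPM scaled by transcript length and library size. Overlapping and antisense exons therefore share reads. The submitters' processing notes also name FastQC (0.11.5) and DESeq2 (1.22.2).

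Estimated counts were rounded. A gene was tested if 3 or more samples held 10 or more counts. BRG1 was compared with Control by the quasi-likelihood test of edgeR (4.0.16, TMM factors, R 4.3.3) without covariates, and p-values were adjusted over all 14225 genes (Benjamini-Hochberg, threshold 0.05). DESeq2 (1.42.0), the study's tool, and limma-voom (3.58.1) were alternatives. The main test was edgeR because, on simulated data, the share of false calls from DESeq2 was above the set level. The values of that simulation are not given here, so it does not rank the tests on these data. Intervals are 95% intervals of the fit. Normalised counts are estimated counts divided by TMM-scaled library size and multiplied by its mean. A count of 3 or fewer in every sample of a group was taken as the floor. Totals of 29699741 to 63613710 set the counting precision. Coordinates and exon overlaps are from GENCODE v44 (GRCh38).

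Deviations from group means correlated between samples of equal number (0.367, 0.335 and 0.484 over 14225 genes, against -0.379 to 0.0608 for unequal numbers), so the numbers were taken to pair the samples and the blocked value is given where it changes a call. Deviations within a group sum to 0, so positive values at equal numbers by themselves lower those at unequal numbers. The contrast between them therefore overstates the pairing. The pairing comes from this check, not from the labels.

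Members and lists were chosen with earlier results of these data known. HOX members were named when any of the tests called them, when their mean was at least 100 normalised counts or when they led their cluster. Of each list, the called genes were named, at most 4 in a direction. PCGF5, EZH2, CALCOCO1, CBX5, DHRS3, EMX2 and HLX were named after their values were seen. So were RBBP4, PCGF2, CBX2, CBX8, PSIP1, DOT1L and HIBADH, and the endothelial and epithelial markers given singly. Some genes that these rules name are not reported here.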

Additional observations from a re-analysis of the deposited data

How the results depend on the processing

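Alternatives were another test (DESeq2, limma-voom), other scaling (median-ratio factors, library totals), other filters, a threshold of 0.01, the replicate block and leaving out each sample. Leaving samples out of the blocked fit and lengths from the union of exons were chosen after seeing the data. Of 2 HOX genes called higher, 1 was called with a filter on a mean of at least 50 counts, where HOXB3 was no longer tested, and 0 at 0.01. Leaving out a sample gave 0 to 2, and 0 to 4 under the block, where the 4 came without BRG1 3 and included HOXC13 (0.39, adjusted p 0.0431). No HOX gene was called lower under any of these. In edgeR, pairing by the replicate block gave 3 HOX calls in place of 2, with HOXB4 added, and changed no other HOX call. Over all genes, 2095 were called higher by DESeq2 with the block (1313 in the report). Lower calls (140 in the report) were 294 in DESeq2, 82 with library totals, 783 with the block, 1035 in DESeq2 with the block, 31 at 0.01, and 37 to 236 with a sample left out. The block called 1 Polycomb subunit higher and 1 lower, and 1 flanking gene higher and 1 lower. Over all genes the block called 13.3% higher and 5.5% lower. With a sample left out, 0 to 1 TALE genes, 1 to 3 retinoic acid genes and 2 to 4 ANTP-class genes were higher, and 0 to 1 flanking genes lower. The causes were not tested.

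Signs turned only for members that were not called. With a sample left out, log2 fold changes ran from -0.25 to 0.50 for HOXB13, -0.20 to 0.039 for HOXC4, -0.12 to 0.28 for HOXC6, -0.17 to 0.099 for HOXC8, -0.24 to 0.026 for HOXC9 and -0.17 to 0.081 for HOXC10. HOXC8 was also 0.0018 in DESeq2, 0.019 in limma-voom, 0.0049 with median-ratio factors, 0.050 with library totals and 0.025 with the filter at 50. With exon-union lengths, Control levels per kb were 0.490 for HOXB3, 97.2 for HOXC4, 229 for HOXC6 and 1447 for HOXC10, which placed HOXC6 below HOXC13 and HOXC8. For the 19 HOX genes under the count filter, the edgeR test of the report gives no value.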
